A study of Mus musculus with 6 samples.

Results

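The chromatin of 10 transcription factor genes of T follicular helper (Tfh) cells was examined: Bcl6, Maf, Batf, Irf4, Tcf7, Lef1, Ascl2, Tox, Tox2 and Pou2af1. They were chosen as genes known for the Tfh program, and every peak whose symbol in the deposited table was 1 of the 10 was taken. This gave 258 of 282898 peaks, 20 at a start site and 238 elsewhere in or at the end of the gene, and they carried 8085 reads in all. The assay was ATAC-seq, which reads out open chromatin through the sites where a transposase can insert sequencing adaptors.

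The study compared 3 Tfh populations, named Tfh21, Tfh214 and Tfh4, of Stat6 knockout (KO) and Stat6 wild-type (WT) mice. The 6 groups were KO Tfh21, KO Tfh214, KO Tfh4, WT Tfh21, WT Tfh214 and WT Tfh4, with 1 library each. All were untreated C57BL/6 cells taken ex vivo from a cell sorter, with 10 mice per genotype and 50000 cells per library. What part of Stat6 the knockout allele lacks, the sort markers, the ages of the mice and the tissue of origin were not given in the sources used here. STAT6 is the transcription factor that the IL-4 receptor activates. Where 3 values are given for a genotype, they stand in the order Tfh21, Tfh214, Tfh4.

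Because there was 1 library per group, a genotype cannot be told apart from its pool of mice or from the preparation of its libraries. The models below set an effect against the spread left over populations and genotypes, never against the spread between animals. With 2 residual degrees of freedom, limma draws the spread of each gene or peak toward the trend of all at its level. A standard error (SE) below is therefore not the scatter of that gene or peak alone. In bulk cells, fewer cells with an open site and less opening in each cell cannot be told apart. The libraries held 798555 to 1373218 reads in peaks. The share of reads in start-site peaks was 36.4%, 34.9% and 29.7% in the KO libraries, against 31.5%, 31.0% and 27.6% in the WT libraries. That share moves with every start-site comparison below, and its part in them was not tested.

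The cell type was checked against markers. All 5 Tfh markers (Bcl6, Cxcr5, Pdcd1, Icos and Il21) and all 10 T cell markers had a start-site peak, among them Cd3e with 136 reads and Cd4 with 22. Of 10 B cell markers 2 had one, with 13 and 34 reads, Cd79a and Ms4a1 had no peak, and Pax5 and Ebf1 had none at a start site. Of 6 myeloid markers 5 had one, with 10 to 291 reads, the highest at Cebpa, so such a peak alone does not tell cell types apart. The regulatory T cell list had 1 of 3 (Il2ra, 37 reads), and Ikzf2 held 1286 distal reads. The natural killer cell list had 1 of 3 (Eomes, 10 reads). The summed B cell marker signal was 130.3, 146.5 and 144.5 CPM (reads scaled to the same total in each library) in the KO libraries, against 143.4, 178.5 and 184.2 CPM in the WT libraries. Most of it lay within Pax5, whose distal peaks held 540 reads, and Ebf1, with 214. Ebf1 stood at 18.1, 30.1 and 41.2 CPM in KO and 19.6, 41.7 and 32.8 CPM in WT, and its distal log2 difference of Tfh4 to Tfh21 was 0.93 ± 0.27 (limma adjusted p = 0.291). Pax5 stood at 70.4, 73.9 and 53.3 CPM in KO and 76.6, 100.6 and 92.5 CPM in WT, and its distal log2 difference of KO to WT was −0.45 ± 0.15 (limma adjusted p = 0.382). Of these 2 distal sums, the only B cell ones tested, 1 was above 0 in Tfh4 against Tfh21, with a median of 0.43. In KO against WT 0 of the 2 were above 0, with a median of −0.27. Of the CD8 T cell markers Cd8a had no peak, while Cd8b1 had 29 start-site reads, more than the 22 of Cd4. In summed CPM Cd8b1 was highest in Tfh4 in each genotype, at 12.1 CPM in KO and 13.1 CPM in WT. The start site of Cebpa, the only myeloid one tested, was lower in Tfh4 than in Tfh214, at −0.62 ± 0.18 (limma adjusted p = 0.0433). The median of all tested start sites was −0.22 in that comparison. The other myeloid markers did not share this direction. In summed CPM Lyz2 was higher in Tfh4 than in Tfh214 in each genotype. Csf1r and Itgam were higher in KO and lower in WT, and Cd14 and Spi1 were lower in KO and higher in WT. The part of these markers in the results was not tested.

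The germinal centre depends on Tfh cells, which enter the B cell follicle and help B cells to select high-affinity antibodies. Their program rests on BCL6, a zinc finger repressor that keeps the factors of other T helper fates down. TCF-1 and LEF1, the HMG-box factors encoded by Tcf7 and Lef1, act early and favour Bcl6, while ASCL2 promotes Cxcr5, and BATF and IRF4 bind together at AP-1 and IRF composite sites downstream of the T cell receptor. MAF drives the cytokine Il21, TOX and TOX2 are HMG-box proteins that shape chromatin, and the product of Pou2af1 is a coactivator of octamer factors best known from B cells.

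Promoter sequences were available from RefSeq (GRCm38.p6) for 8 of the 10 genes, with 17 annotated starts and 250 bases before to 50 bases after each; Maf and Tox had no entry. A selection is shown, both starts of Bcl6 and an internal start of Lef1 because they hold STAT-type motifs, Pou2af1 because its start site is compared by genotype below, and the upstream and downstream starts of Tox2 because no peak of that symbol was placed at a start site. Capitals mark matches to TTCNNNNGAA, the spacing that STAT6 favours, TTCNNNGAA, the spacing of other STAT proteins, or ATCAAAG, a TCF/LEF motif. These coordinates are GRCm38, while all peak coordinates are mm9, and no position was converted between the builds.
Bcl6 promoter 1, chr16:23988803-23989102, minus strand: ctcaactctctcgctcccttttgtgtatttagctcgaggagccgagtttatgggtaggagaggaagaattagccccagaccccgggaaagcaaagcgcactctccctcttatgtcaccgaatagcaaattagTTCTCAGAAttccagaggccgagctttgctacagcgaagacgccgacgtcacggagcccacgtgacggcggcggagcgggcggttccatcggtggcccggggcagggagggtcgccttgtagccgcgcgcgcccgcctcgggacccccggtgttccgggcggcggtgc
Bcl6 promoter 2, chr16:23981234-23981533, minus strand: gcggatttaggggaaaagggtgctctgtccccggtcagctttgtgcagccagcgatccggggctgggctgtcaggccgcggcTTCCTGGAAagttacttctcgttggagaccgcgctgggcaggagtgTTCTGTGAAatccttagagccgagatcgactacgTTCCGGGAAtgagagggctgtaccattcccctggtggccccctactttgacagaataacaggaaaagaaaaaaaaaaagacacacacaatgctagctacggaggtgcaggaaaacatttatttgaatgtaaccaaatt
Lef1 internal promoter, chr3:131112541-131112840, plus strand: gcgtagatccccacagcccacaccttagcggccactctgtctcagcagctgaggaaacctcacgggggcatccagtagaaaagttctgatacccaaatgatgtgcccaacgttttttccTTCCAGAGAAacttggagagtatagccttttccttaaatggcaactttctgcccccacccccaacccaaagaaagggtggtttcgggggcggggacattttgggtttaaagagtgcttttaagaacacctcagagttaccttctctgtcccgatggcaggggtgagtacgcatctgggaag
Pou2af1 promoter, chr9:51213440-51213739, plus strand: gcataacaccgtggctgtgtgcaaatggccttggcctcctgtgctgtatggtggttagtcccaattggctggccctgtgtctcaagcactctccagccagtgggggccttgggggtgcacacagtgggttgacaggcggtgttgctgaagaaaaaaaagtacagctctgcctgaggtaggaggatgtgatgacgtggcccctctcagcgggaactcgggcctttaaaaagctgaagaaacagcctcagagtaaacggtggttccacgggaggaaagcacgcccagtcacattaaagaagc
Tox2 upstream promoter, chr2:163203033-163203332, plus strand: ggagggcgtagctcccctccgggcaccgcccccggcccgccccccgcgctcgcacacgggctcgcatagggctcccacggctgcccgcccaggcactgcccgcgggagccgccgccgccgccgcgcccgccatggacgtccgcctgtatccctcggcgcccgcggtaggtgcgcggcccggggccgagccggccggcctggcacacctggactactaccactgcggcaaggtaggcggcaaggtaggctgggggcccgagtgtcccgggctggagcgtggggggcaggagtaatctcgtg
Tox2 downstream promoter, chr2:163225203-163225502, plus strand: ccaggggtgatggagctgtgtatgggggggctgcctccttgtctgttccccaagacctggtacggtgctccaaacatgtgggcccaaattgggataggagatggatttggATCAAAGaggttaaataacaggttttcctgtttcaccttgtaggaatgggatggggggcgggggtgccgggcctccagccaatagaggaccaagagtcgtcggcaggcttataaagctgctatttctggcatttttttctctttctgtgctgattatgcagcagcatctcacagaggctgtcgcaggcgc

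The TTCNNNNGAA spacing was found in 1 of the 17 promoters, the internal start of Lef1 (TTCCAGAGAA), and in 6.95% of all 32851 promoters of the same length. The TTCNNNGAA spacing was found in both Bcl6 promoters, once in the first (TTCTCAGAA) and 3 times in the second (TTCCTGGAA, TTCTGTGAA and TTCCGGGAA), and in 8.30% of all promoters. The AP-1 motif TGANTCA was in 0 of the 17 and in 7.81% of all, and ATCAAAG was in 2 overlapping downstream Tox2 promoters and in 3.73% of all. Both strands were read, and none of the marked matches overlapped another. The upstream Tox2 promoter had a GC content of 77.7% and 39 CpG, the downstream one 53.3% and 7, against medians of 52.7% and 7 over all promoters. A match is a run of letters in a window and was not tied to binding of any factor.

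The 10 genes differed in how their peaks were laid out. Tox, which spans 303 kb, had 96 peaks, ranked 55 of 19109 genes by number of peaks, and 93 of its 95 distal peaks lay in introns. Lef1 had 47 peaks and Tox2 34, while Maf had 6 and Ascl2 and Pou2af1 5 each, against a median of 4 over all genes. Introns held 84.0% of the distal peaks of the 10 genes and 62.3% of those of all genes.

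Most of these peaks were thin. The weakest held 10 reads over the 6 libraries, the median 16 and the strongest 506, and 212 of 258 held fewer than 30. Only 12 had a mean of at least 20 reads per library, 6 at start sites and 6 distal, and only these could be tested one by one. Start-site peaks took 24.4% of the reads of the 10 genes, with 1972 reads against 6113 distal ones, and 48.0% of the reads of all genes.

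**Figure D1:**
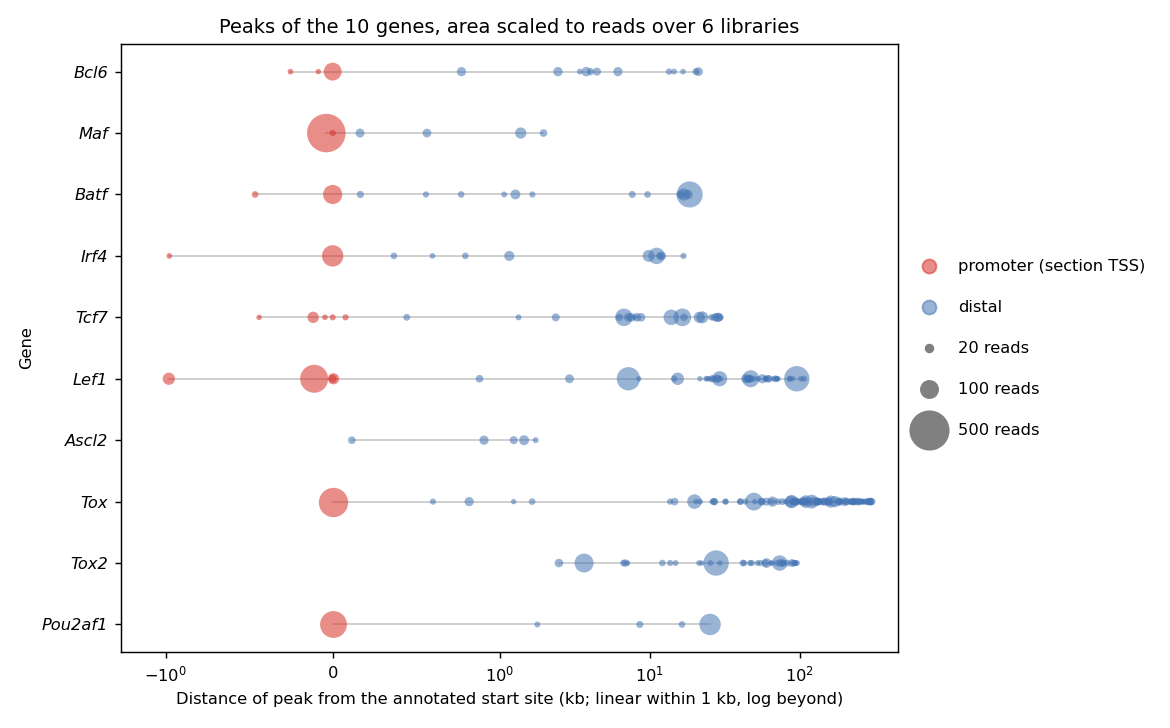
Each point is a peak of 1 of the 10 genes, placed by its distance from the annotated start site in kb (linear within 1 kb, logarithmic beyond) with its area scaled to its reads over the 6 libraries. Start-site peaks are red and distal peaks blue; Maf is led by 1 start-site peak of 506 reads, Tox by many weak intronic peaks, and Tox2 and Ascl2 have no start-site peak.

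Start-site signal was set side by side per kb of peak, since the peaks differ in width. Pou2af1 led with a mean of 49.3 CPM per kb over the 6 libraries, followed by Maf with 48.3, Tox with 36.1 and Lef1 with 32.3. Bcl6 stood at 26.6, Batf at 26.1 and Irf4 at 22.9, and Tcf7 was last at 11.3. Each pair of neighbours in this order overlapped in the range of their libraries, except Irf4 and Tcf7. Bcl6, the gene that defines the lineage, had 130 start-site reads in all, where the median gene with such a peak had 125.

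Ascl2 and Tox2 had no start-site peak by the authors' annotation. Ascl2 had 5 peaks of 12 to 34 reads, the nearest 115 bases downstream of the start, in exon 1. In Tox2 the nearest peak listed under its symbol lay in intron 1, and the strongest was in intron 2 (chr2:163078877-163079693, 219 reads).

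Maf had the highest start-site sum. Its start-site signal was 92.3, 100.2 and 63.8 CPM in the KO libraries, against 81.1, 75.5 and 56.1 CPM in the WT libraries. In each genotype the Tfh4 library was the lowest, and both Tfh4 libraries lay below all 4 others. Nearly all of it came from 1 peak of 1417 bases over the start (chr8:118230833-118232250), where the KO libraries held 94, 79 and 78 reads and the WT libraries 86, 95 and 74.

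The other start sites were weaker. Lef1 stood at 64.7, 67.6 and 45.2 CPM in the KO libraries and 62.3, 53.5 and 50.2 CPM in the WT libraries. Tox stood at 46.6, 42.6 and 35.5 CPM in KO and 52.6, 46.4 and 34.95 CPM in WT, with Tfh4 lowest in each genotype, as at Lef1. Pou2af1 stood at 48.5, 33.8 and 39.6 CPM in KO and 29.4, 39.3 and 25.5 CPM in WT. Its order of populations differed between the genotypes, and the KO and WT libraries overlapped.

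At Bcl6 the start-site sum was 17.1, 17.5 and 16.1 CPM in the KO libraries and 19.6, 20.4 and 21.8 CPM in the WT libraries. The 3 KO values lay below the 3 WT values, but they rested on 14 to 20 reads in KO and 22 to 30 reads in WT. Batf ranged from 15.0 to 29.5 CPM in KO and from 18.9 to 21.4 CPM in WT, so these overlapped. Irf4 ranged from 25.0 to 29.5 CPM in KO and from 21.2 to 23.3 CPM in WT, without overlap of these values. They rested on 21 to 31 reads in KO and 25 to 32 in WT, and their Poisson intervals overlapped. Limma gave 0.26 ± 0.20 for KO against WT (adjusted p = 0.444), where the median of all genes was 0.17. Tcf7 held only 10 to 17 reads per library in KO and 14 to 22 in WT, too few for the test.

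**Figure D2:**
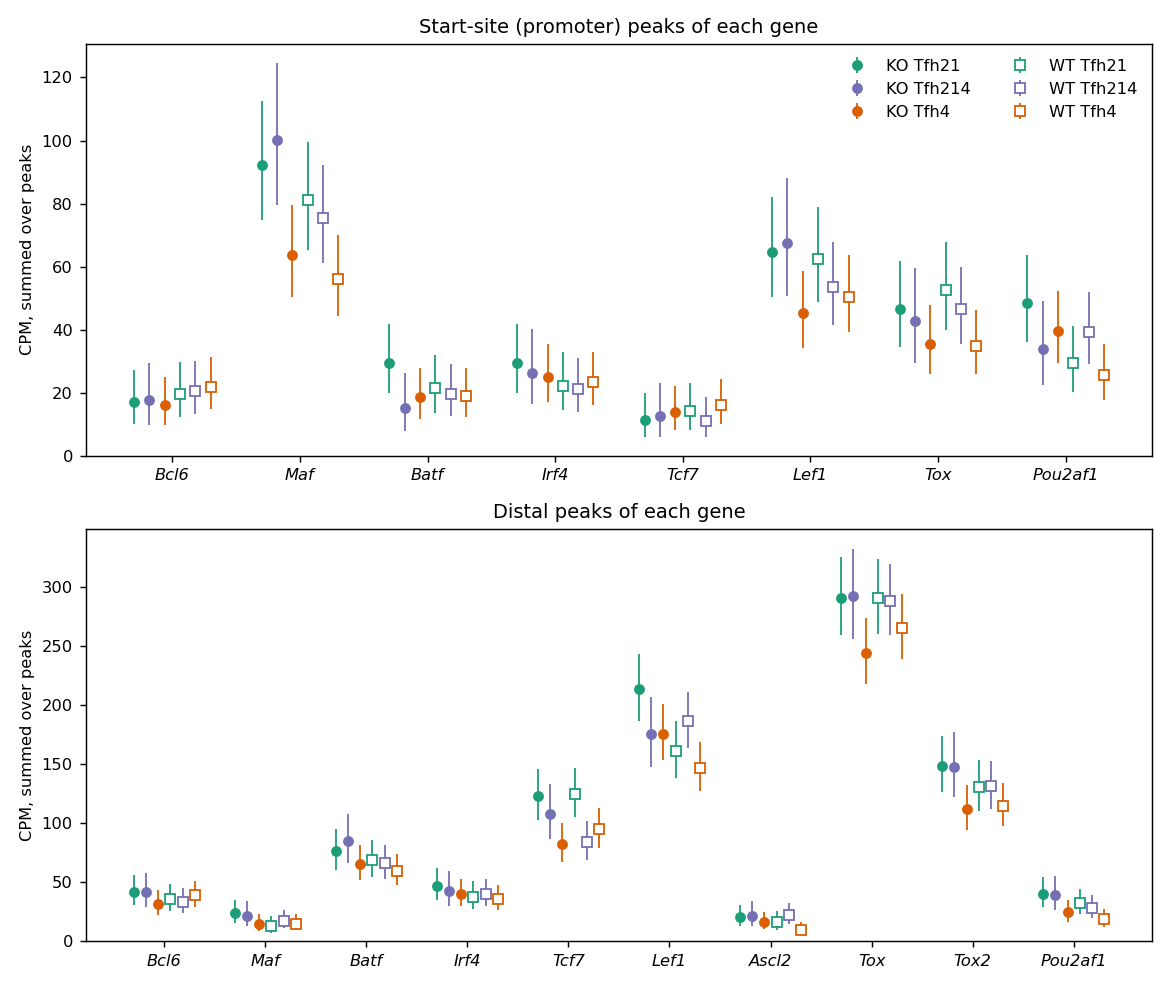
CPM summed over the start-site peaks (upper panel) and the distal peaks (lower panel) of each gene, 1 point per library with its exact Poisson 95% interval; filled circles are KO, open squares WT, and colours mark the population. The 2 Tfh4 libraries are lowest at the Maf start site (63.8 CPM in KO and 56.1 CPM in WT), and the distal sums are led by Tox at 245 to 293 CPM in KO and 266 to 291 CPM in WT.

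Summed over their many distal peaks, the HMG-box genes Tox, Lef1, Tox2 and Tcf7 had the most distal signal. Per kb of peak the order was another, with Batf at 18.1 CPM per kb, Pou2af1 at 16.1 and Tcf7 at 14.8, down to Tox2 at 9.28, Bcl6 at 9.24 and Tox at 7.45. The sum at Tox was 291, 293 and 245 CPM in the KO libraries and 291, 289 and 266 CPM in the WT libraries. Lef1 held 214, 175 and 176 CPM in KO and 161, 186 and 147 CPM in WT. Tox2 held 148, 148 and 112 CPM in KO and 131, 131 and 114 CPM in WT. In Tox and Tox2 both Tfh4 libraries lay below all 4 others, and in Lef1 the libraries of the populations overlapped.

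Tcf7 had 123, 108 and 82.4 CPM in KO and 125, 84.1 and 94.7 CPM in WT. Both Tfh21 libraries were the highest here. Batf had 76.1, 85.2 and 65.4 CPM in KO and 68.6, 66.1 and 59.7 CPM in WT. Of the 472 distal reads of Batf, 49.2% lay in 1 peak of intron 2 (chr12:87046112-87046997), 18.4 kb from the start.

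Pou2af1 had 39.96, 38.8 and 24.2 CPM in KO and 32.1, 28.3 and 18.2 CPM in WT, and 78.0% of its distal reads came from 1 peak at the transcript end (chr9:51047024-51047537). Irf4 ranged from 39.6 to 46.6 CPM in KO and from 35.7 to 40.1 CPM in WT, and Bcl6 from 31.5 to 41.9 CPM in KO and from 33.0 to 38.6 CPM in WT. The 12 distal peaks of Bcl6 were all weak, the strongest in the 5′ UTR with 31 reads, and 7 of the 12 lay in UTR exons. Maf had 14.5 to 23.8 CPM in KO and 12.5 to 17.3 CPM in WT, Ascl2 had 16.1 to 21.3 CPM in KO and 9.47 to 22.0 CPM in WT, and with means of 19.3 and 19.5 reads they were just under the minimum of the test.

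Between the populations, the signal summed over the 10 genes was lowest in Tfh4 in each genotype, but not that of every gene. Summed over the genes, start-site signal was 340, 316 and 258 CPM in KO and 303, 287 and 247 CPM in WT. Distal signal was 1025, 974 and 807 CPM in KO and 910, 897 and 798 CPM in WT. Bcl6 in WT was highest in Tfh4, at start sites and in distal sums, and so was the Irf4 start site in WT. Tcf7 start-site signal was highest in Tfh4 in both genotypes, and the intervals overlapped in each of these cases. Tfh214 was lowest for the Batf and Pou2af1 start sites and Lef1 distal signal in KO, and for Tcf7 distal signal in WT. Tfh21 was lowest for Maf distal signal in WT. Start-site peaks of all genes were also lower in Tfh4 and distal peaks of all genes were slightly higher, so the start-site and distal results below are read against these shifts.

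Genotype and population were fitted together, as additive terms, with limma on log2(CPM + 1), for all genes with a mean of at least 20 reads, with Benjamini-Hochberg adjustment over all of them and a threshold of 0.05. For start-site sums of Tfh4 against Tfh21, 1 of 7 tested members was called, Maf, which was lower, beside 222 of 7087 genes (3.13%), all lower. Its log2 difference was −0.52 ± 0.13 (SE), with adjusted p = 0.0273, while the median of all tested genes was −0.26. Both genotypes showed the direction.

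Maf was also the only member called against Tfh214, at −0.53 ± 0.13 (limma adjusted p = 0.0216), beside 156 of 7087 genes (2.2%), with a median of all genes of −0.22. Less these medians, the differences at Maf were −0.26 and −0.32. The start-site peak by itself gave −0.50 ± 0.13 against Tfh21 (adjusted p = 0.0422), where 1 of 12 member peaks and 118 of 8986 peaks (1.31%) were called. Against Tfh214 it gave −0.55 ± 0.13 (limma adjusted p = 0.0218), again the only member peak of 12, with 178 peaks (1.98%) called. The medians of all tested peaks were −0.27 against Tfh21 and −0.23 against Tfh214.

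The call at Maf depended on the scaling and on single libraries. With median-of-ratios scaling, which sets the median start-site gene to no change, the log2 difference of the sum was −0.26 against Tfh21 and −0.31 against Tfh214, and neither was called; 0 of all 7087 genes were then called in either comparison. Nor was the call against Tfh21 made without KO Tfh21 (−0.58), KO Tfh4 (−0.47) or WT Tfh21 (−0.47), or the one against Tfh214 without KO Tfh21 (−0.53), KO Tfh214 (−0.42), KO Tfh4 (−0.48) or WT Tfh21 (−0.53).

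Reads pooled over the genotypes gave ratios with exact binomial 95% intervals that cover counting error only. The start-site ratio of Tfh4 to Tfh21 was 0.691 (0.555 to 0.859) at Maf, 0.709 (0.531 to 0.945) at Tox and 0.754 (0.587 to 0.967) at Lef1. These were 3 of 7 tested members whose interval lay below 1, beside 17.6% of all genes. With median-of-ratios scaling the Maf ratio became 0.832 (0.668 to 1.03), and 0 of the 7 intervals lay below 1. The remaining ratios ran from 0.742 at Batf to 1.04 at Bcl6, against a median of 0.832 over all genes, and Tcf7, with too few reads for the count, stood at 1.16 (0.695 to 1.96). Against Tfh214, Maf at 0.703 (0.563 to 0.877) was the 1 of 7 members below 1, beside 11.2% of all genes.

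In the fit over both genotypes the distal sums of the tested members were on the lower side in Tfh4, and none passed the test. In Tfh4 against Tfh21, 0 of the 8 tested members had a log2 difference above 0, with a median of −0.21, while 61.8% of all 5184 tested genes were above 0, with a median of 0.10. Limma called 0 of the 8 and 0 of all genes (0.0%). At an unadjusted p under 0.05 there were 2 of the 8 and 594 of all genes. With edgeR or DESeq2 the count of members called was 0 as well. The 2 were Pou2af1, at −0.74 ± 0.26 (adjusted p = 0.293), and Tcf7, at −0.48 ± 0.17 (adjusted p = 0.307).

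In pooled reads, the Tfh4 to Tfh21 ratio was 0.587 (0.408 to 0.839) at Pou2af1 and 0.718 (0.600 to 0.859) at Tcf7. It was 0.813 (0.690 to 0.958) at Tox2, 0.861 (0.749 to 0.989) at Lef1 and 0.878 (0.787 to 0.981) at Tox. Thus 5 of 8 members had an interval below 1, beside 4.86% of all genes, and the median ratio of all genes was 1.07. Batf (0.864), Irf4 (0.896) and Bcl6 (0.912) were below 1 with intervals that included it. With median-of-ratios scaling the same count was 5 of 8, beside 514 of all 5184 genes, up from 252 without that scaling. Tcf7 then stood at 0.671 (0.561 to 0.803).

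A gene with many reads has a narrow interval, so the members were also read against all genes in 3 broad classes of signal. Among the 954 genes with a mean of at least 80 distal reads, 10.8% had an interval below 1, and so had all 4 members in that class (Tcf7, Lef1, Tox and Tox2). That class has no upper limit, and by distal reads Tox ranked 45, Lef1 171, Tox2 320 and Tcf7 510 of all genes. The 10.8% therefore also covers many genes with fewer reads than these. Among the 1537 genes of 40 to 80 reads it was 4.81%, and 0 of the 3 members there (Bcl6, Batf and Irf4). In the class of 20 to 40 reads it was 2.78% of 2693 genes, and Pou2af1 was the only member.

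**Figure D3:**
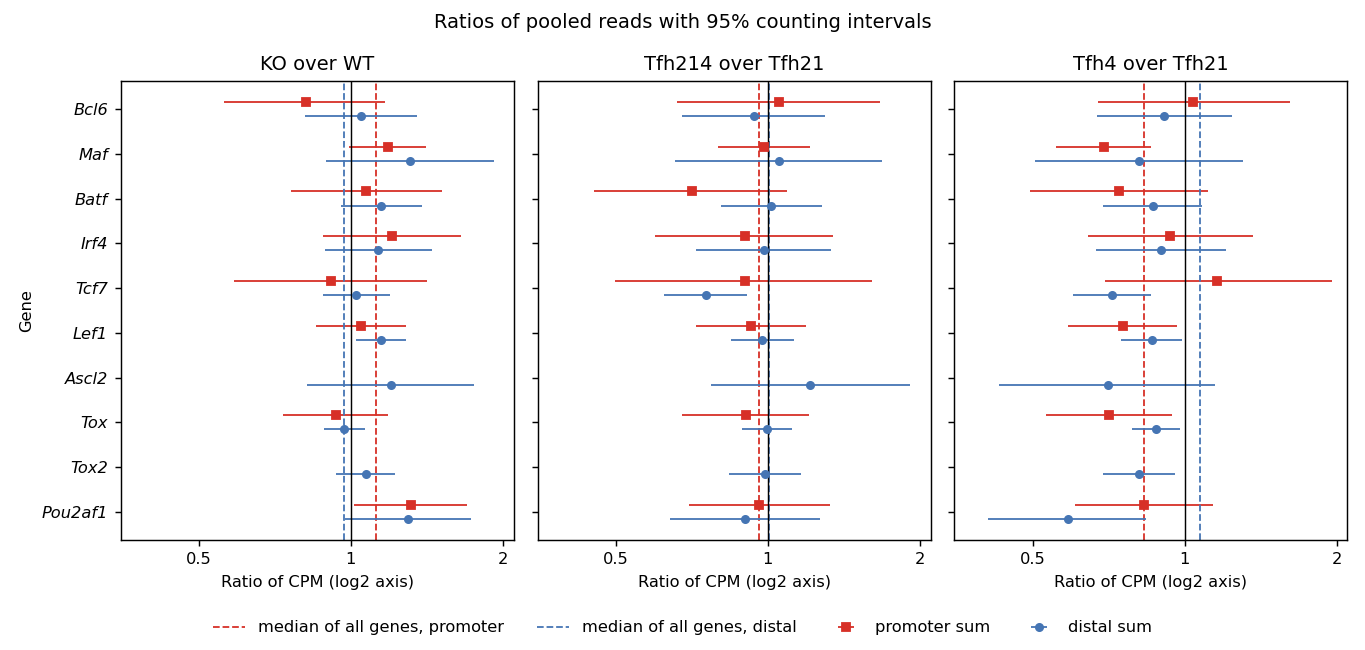
Ratios of CPM from pooled reads on a log2 axis, with exact binomial 95% intervals, for KO over WT, Tfh214 over Tfh21 and Tfh4 over Tfh21; red squares are start-site sums, blue circles distal sums, and dashed lines the median of all tested genes in each table. In Tfh4 over Tfh21 the distal circles lie left of the distal median of 1.07, with Pou2af1 at 0.587 and Tcf7 at 0.718.

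Within each genotype the distal count was smaller in WT. In KO Tfh4 against KO Tfh21, 5 of 8 intervals lay below 1 (4.57% of all genes), with Pou2af1 at 0.606, Tcf7 at 0.671, Tox2 at 0.756, Lef1 at 0.822 and Tox at 0.840. In WT Tfh4 against WT Tfh21 it was 2 of 8 (2.93% of all genes), with Pou2af1 at 0.568 (0.327 to 0.972) and Tcf7 at 0.759 (0.593 to 0.971), while Tox2 stood at 0.873, Tox at 0.913 and Lef1 at 0.912, and Bcl6 was above 1 at 1.08 (0.705 to 1.68). Whether the genotypes differ in this was not tested, and within a genotype the shares were not split by class of signal.

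Against Tfh214, which shares the Tfh4 libraries with the comparison above, 0 of the 8 distal log2 differences were above 0, and 62.0% of all genes were. Limma called 0 of the 8 and 0 genes in all (0.0%), with 1 of the 8 and 451 genes at an unadjusted p under 0.05. The intervals of Pou2af1 at 0.651 (0.447 to 0.944), Tox2 at 0.823 (0.697 to 0.972) and Tox at 0.881 (0.788 to 0.985) lay below 1, 3 of 8 beside 3.63% of all genes. Among the 954 genes with a mean of at least 80 distal reads the share was 8.28%, and 2 of the 4 members there. Tcf7 stood at 0.953 (0.784 to 1.16). Ascl2, with too few reads for the count, stood at 0.581 (0.359 to 0.931) against Tfh214 and at 0.704 (0.429 to 1.15) against Tfh21.

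Between Tfh214 and Tfh21, the start site of Batf had the lowest ratio, at 0.706 (0.453 to 1.09), and 0 of 7 start-site intervals excluded 1. Among distal sums Tcf7 differed most. Its distal ratio was 0.753 (0.623 to 0.910), from 193 and 269 reads, the 1 of 8 members with an interval below 1 (4.22% of all genes). It was 0.878 (0.660 to 1.16) in KO and 0.675 (0.520 to 0.874) in WT. Limma gave −0.37 and called neither Tcf7 nor any other gene, 0 of 8 members and 0 of 5184 genes for distal sums (0.0%), 0 of 7 and 0 of 7087 for start-site sums (0.0%), and 0 of 12 and 0 of 8986 for peaks (0.0%). At an unadjusted p under 0.05 there were 306, 306 and 345. edgeR and DESeq2 called 0 members too.

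Single peaks placed part of the Tfh4 difference. The median of all 8986 tested peaks was −0.27 in Tfh4 against Tfh21, with 7.87% above 0. At Pou2af1 the peak at the transcript end held 30, 27 and 22 reads in the KO libraries, or 28.5, 33.8 and 17.8 CPM, and 29, 28 and 20 reads, or 25.8, 22.0 and 14.6 CPM, in WT. Both Tfh4 libraries were the lowest, and the log2 difference to Tfh21 was −0.72 ± 0.25 (limma adjusted p = 0.0834). The start-site peak of the same gene differed by −0.24 ± 0.20.

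At Lef1, a peak in intron 3 (chr3:130820425-130821082), 7.21 kb from the start, held 39, 22 and 23 reads in KO and 33, 40 and 28 reads in WT. In CPM this was 37.1, 27.5 and 18.6 in KO and 29.4, 31.5 and 20.4 in WT. The Tfh4 to Tfh21 ratio of this peak was 0.590 (0.404 to 0.856). Limma gave −0.73 ± 0.23 (adjusted p = 0.0603), where the median of all tested peaks was −0.27. It was called without either Tfh214 library, at the same log2 difference. The peak in the 3′ UTR of Lef1 stood at 0.921 (0.666 to 1.28), and limma gave −0.04 ± 0.21 there.

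Between the genotypes, no member passed the test. Limma called 0 of 7 start-site sums, beside 72 of 7087 genes (1.02%, all higher in KO; 1383 and, of the members, 2 at an unadjusted p under 0.05). It called 0 of 8 distal sums, beside 3 of 5184 genes (0.0579%; 514 and 0 unadjusted), and 0 of 12 peaks, beside 77 of 8986 (0.857%; 1885 and 5 unadjusted). The median difference of all genes was 0.17 for start-site sums and −0.05 for distal sums. That of all 8986 tested peaks was 0.19, with 85.9% above 0, and the single peaks below are read against it. edgeR and DESeq2 called 0 members.

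Bcl6 was the member with the lowest start-site value in KO relative to WT. Its pooled ratio was 0.813 (0.561 to 1.17) from 52 and 78 reads, and limma gave −0.27 ± 0.23 (adjusted p = 0.504), or −0.44 less the median of all genes. The strongest peak (chr16:23988653-23989025) held 17, 11 and 15 reads in KO and 19, 23 and 24 in WT. Scaled to depth this was 16.2, 13.8 and 12.1 CPM in KO and 16.9, 18.1 and 17.5 CPM in WT. In Tfh4 this peak had the lowest KO to WT ratio among member peaks whose higher library had 20 reads or more, at 0.693 (0.338 to 1.38). It met that limit through its WT library alone.

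Maf and Pou2af1 were on the higher side at the start site. Maf stood at 1.18 (0.992 to 1.41) and 0.26 ± 0.11 (limma adjusted p = 0.166), with a higher CPM in KO in 3 of 3 populations, close to the median of all genes. With median-of-ratios scaling the Maf ratio was 1.06 (0.885 to 1.26), and 0.981 in Tfh21. Pou2af1 stood at 1.31 (1.01 to 1.70) and 0.37 ± 0.16 (limma adjusted p = 0.192). It was the 1 of 7 members with a pooled interval above 1, beside 11.6% of all genes. In Tfh21 alone it was also the 1 of 7 (4.36% of all genes), at 1.65 (1.04 to 2.64), and it was 1.55 (0.986 to 2.47) in Tfh4 and 0.860 (0.518 to 1.40) in Tfh214. With median-of-ratios scaling 0 of 7 pooled intervals lay above 1.

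The distal sums were mostly on the higher side in KO. Of the 8 tested members 7 had a log2 difference above 0, with a median of 0.14, and the exception was Tox at −0.03, while 41.1% of all genes were above 0. With median-of-ratios scaling it was 8 of 8. For start-site sums it was 5 of 7 members, beside 84.2% of all genes, and 3 of 7 with that scaling. Lef1 was the 1 of 8 with a pooled interval above 1, at 1.15 (1.02 to 1.29), beside 4.9% of all genes. Among the 954 genes with a mean of at least 80 distal reads, to which Lef1 belongs, the share was 12.6%, and 1 of the 4 members there. Lef1 stood at 1.33 (1.09 to 1.62) in Tfh21, again the 1 of 8 (3.22% of all genes), at 0.941 (0.758 to 1.16) in Tfh214 and at 1.20 (0.984 to 1.46) in Tfh4. With median-of-ratios scaling 2 of 8 lay above 1, Lef1 at 1.19 and Pou2af1 at 1.34 (1.01 to 1.79). Beside them stood 406 of all 5184 genes, up from 254 without that scaling.

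Of the 3 Lef1 peaks deep enough to test, 1 had all KO values above all WT values. In the 3′ UTR of the gene (chr3:130911053-130912010), 95.3 kb from the start, the KO libraries held 50, 29 and 44 reads, or 47.6, 36.3 and 35.5 CPM, against 25, 33 and 39 reads, or 22.3, 25.9 and 28.4 CPM, in WT. The highest was KO Tfh21 and the lowest WT Tfh21. Limma gave 0.61 ± 0.17 (adjusted p = 0.0581), just short of the threshold, where the median of all tested peaks was 0.19. The pooled ratio was 1.55 (1.18 to 2.04). The ratio was 2.14 (1.297 to 3.60) in Tfh21, 1.40 (0.820 to 2.38) in Tfh214 and 1.25 (0.794 to 1.98) in Tfh4. The peak was called without either Tfh214 library (0.69) or either Tfh4 library (0.77), and without KO Tfh21 or WT Tfh21 the difference was 0.39. With median-of-ratios scaling it was 0.43. In the additive model, leaving out either library of a population gives the same genotype difference, so such leave-outs are not separate checks.

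In Tox2 a peak of intron 1 (chr2:163054845-163055211), 3.66 kb from the start, held 30, 20 and 22 reads in KO and 15, 23 and 13 reads in WT. In CPM this was 28.5, 25.0 and 17.8 in KO against 13.4, 18.1 and 9.47 in WT, higher in KO in 3 of 3 populations, with KO Tfh4 below WT Tfh214. Limma gave 0.78 ± 0.24 (adjusted p = 0.0789), where the median of all tested peaks was 0.19. Without either Tfh214 library it gave 0.94. The stronger intron 2 peak of Tox2 differed by 0.07 ± 0.17.

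Within single populations, 3 of 16 member peaks whose higher library had 20 reads or more had an interval above 1 in Tfh21, beside 5.29% of 10242 peaks. These were the Lef1 3′ UTR peak, the Tox2 intron 1 peak at 2.14 (1.11 to 4.27) and the Pou2af1 start site. The count was 0 of 18 in Tfh214 (3.54% of all peaks in either direction) and 0 of 13 in Tfh4 (7.9%). The extremes there were the end of Pou2af1 at 1.54 (0.871 to 2.70) and an intron 3 peak of Lef1, 47.1 kb from the start, at 0.573 (0.235 to 1.27) in Tfh214, and the Tox2 intron 1 peak at 1.88 (0.904 to 4.05) in Tfh4. In Tfh21 the lowest was the Tox start site at 0.887 (0.595 to 1.32). This filter admits a peak through its higher library alone, for members and for all peaks. The Tox2 intron 1 peak entered through KO only, with 15 reads in WT Tfh21 and 13 in WT Tfh4. The intron 3 peak of Lef1 entered through WT only, with 9 reads in KO Tfh214. Such peaks lean to large ratios, so these counts and extremes are descriptions and no support for a difference.

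The Batf peak of intron 2 had similar ratios in each population. It held 44, 35 and 41 reads in KO and 35, 43 and 34 in WT, with ratios of 1.34, 1.296 and 1.34, and each interval included 1. Pooled, it stood at 1.31 (1.002 to 1.71), an interval that only just excluded 1. The share of all peaks with such a pooled interval was not counted. Limma gave 0.39 ± 0.16 (adjusted p = 0.155), where the median of all tested peaks was 0.19. The Batf start site stood at 1.14 (0.794 to 1.65).

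**Figure D4:**
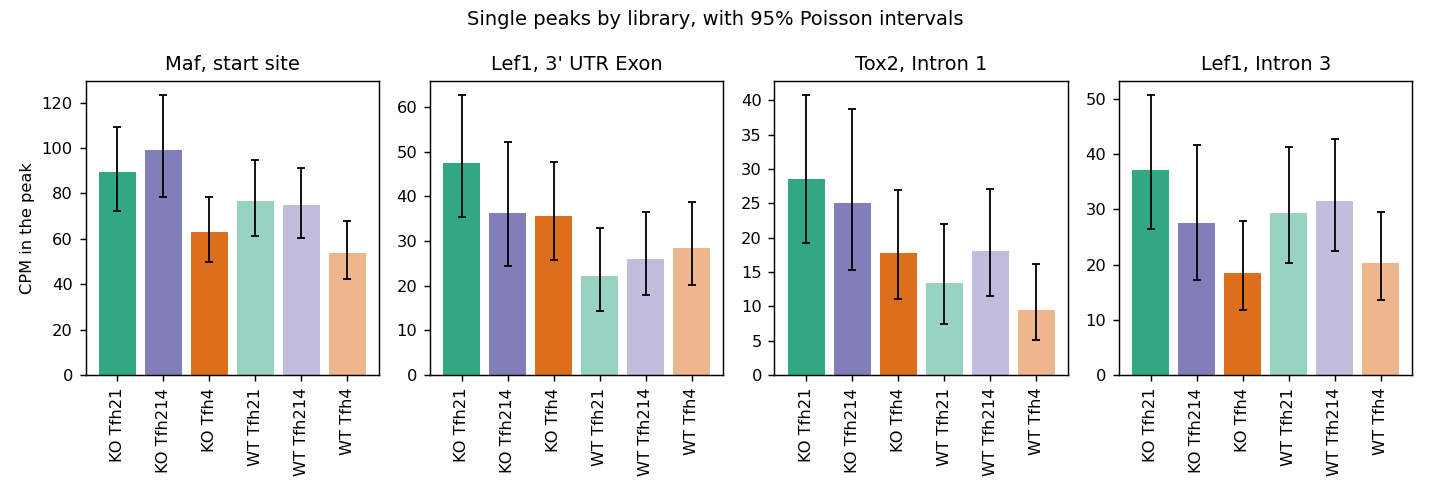
CPM with exact Poisson 95% intervals in the 6 libraries for the Maf start-site peak, the Lef1 3′ UTR peak, the Tox2 intron 1 peak and the Lef1 intron 3 peak 7.21 kb from the start; strong colours are KO and pale colours WT. Maf is lowest in Tfh4 in both genotypes (63.0 CPM in KO and 53.9 CPM in WT), and Lef1 3′ UTR is highest in KO Tfh21 at 47.6 CPM, against 22.3 CPM in WT Tfh21.

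Other genes of the Tfh program were taken from a list of surface and signalling genes, such as Cxcr5, Icos, Il21 and Cd40lg. For start sites, 0 of the 9 tested had a Tfh4 to Tfh21 log2 difference above 0 (8.21% of all genes did), and 2 were called, both lower. They were Btla, an inhibitory receptor, at −0.51 ± 0.14 (limma adjusted p = 0.0324), and Cd200, a ligand of an inhibitory receptor, at −0.88 ± 0.26 (adjusted p = 0.0439). Against Tfh214, Btla alone was called of the 9, at −0.53 ± 0.14 (adjusted p = 0.0273). Of 13 tested distal sums 2 were above 0 in Tfh4 against Tfh21, and 0 were called in any comparison. For KO against WT and Tfh214 against Tfh21, 0 of 9 start sites were called. With median-of-ratios scaling 0 of all genes were called in the Tfh4 start-site comparisons.

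Factors that oppose or divert the Tfh fate, such as Prdm1, Foxo1, Klf2 and Gata3, were taken as a second list. For start sites 1 of 9 tested was called, Id2, an inhibitor of E proteins, which was lower in Tfh4 than in Tfh21 at −0.66 ± 0.20 (limma adjusted p = 0.0489), and 1 of 9 had a difference above 0. For distal sums 0 of 11 were called, and 4 of 11 were above 0, with a median of −0.07, set against −0.21 for the 8 tested members and 0.10 for all genes. In KO against WT 10 of 11 distal sums of this list were above 0, with a median of 0.18, beside the 7 of 8 members above.

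The T cell markers were set beside these lists. In Tfh4 against Tfh21, 1 of 7 tested distal sums was above 0, with a median of −0.17, and 0 of 4 start sites were, with a median of −0.38. In KO against WT 5 of 7 distal sums were above 0, with a median of 0.26, and 1 of 4 start sites was, with a median of −0.07. Limma called 0 of them, and at an unadjusted p under 0.05 there were 1 distal sum and 2 start sites in Tfh4 against Tfh21 and 2 distal sums in KO against WT. Their part in the members' values was not tested.

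Over the 6 libraries, the summed signal of Maf was most like that of Tox2 (Pearson r = 0.97 of log2 (CPM + 1)) and that of Lef1 most like Pou2af1 (0.97). Batf was closest to Maf (0.95), Irf4 to Batf (0.87), Ascl2 to Pou2af1 (0.88) and Tox to Tox2 (0.84). Tcf7 was closest to Tox (0.63) and Bcl6 to Tcf7 (0.59), so these 2 followed the others least. Among 10824 genes, Rab2b, Tubb2b and Ccdc114 were closest to Tox, each at 0.99. These are descriptions over 6 points that share the depth and start-site share of their library.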

How the data were processed

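ATAC-seq libraries of 6 groups were analysed from 1 deposited table of 282898 peaks. The deposited values are CPM, scaled by the authors to the total over the peaks of the table; positions, sections and distances are per the file headers. Per the submitters' processing notes, Bowtie 1.3.0, MACS2 2.0, HOMER and the build mm9 were used, with no role or order stated. The sources used here do not say if libraries were pooled for peak calling or how duplicates were treated. The column headed as gene ID holds the symbol, which was used.

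Whole reads were recovered from the value of 1 read in each library. At most 3 values per library lay over 0.02 reads from a whole number, and at least 99.9989% were whole. CPM was summed per gene over peaks of section TSS (promoter) and over the rest (distal). limma 3.58.1 was fitted to log2(CPM + 1), with a variance trend and an additive model of genotype and population with 2 residual degrees of freedom, over sums or peaks averaging 20 reads or more. The fold is on that scale and understates low peaks. Ratios of reads carry exact binomial and levels exact Poisson 95% intervals. They cover counting error only, not variation between animals, and would be too narrow if PCR copies were counted. Intervals that exclude 1 were counted over the same genes.

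Alternatives were another scaling, pseudocounts of 0.5 and 2, a minimum mean of 10 reads or none, no trend, edgeR 4.0.16 and DESeq2 1.42.0 on the recovered reads, each library left out, promoters within 1000 bases, and the strongest peak of a gene. R 4.3.3, Python 3.11.15, numpy 2.4.6, pandas 2.3.3, scipy 1.17.1 and matplotlib 3.10.9 were used.

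The members, lists, trend and minimum were chosen with earlier results of these data known. Named peaks were the strongest promoter and distal peak of each gene, every called peak, and the largest fold of KO against WT in each direction and population; the Lef1 intron 3 peak 7.21 kb from the start was chosen after its values were seen.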

Additional observations from a re-analysis of the deposited data

Results flagged for a closer look

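Strong peaks without a symbol lay near 5 of the genes and enter none of the sums above. Each was the strongest such peak within 100 kb of the gene and averaged at least 20 reads per library, above the limit of 3 counts that a count of 0 allows. Values stand in the order Tfh21, Tfh214, Tfh4. They are reads not scaled to depth, and KO Tfh214 held 798555 reads in peaks against 1271755 in WT Tfh214. Near Tox2 a peak of 456 reads (chr2:163028718-163030150) lay 21.0 to 22.5 kb upstream of the start used by the authors. It held 89, 65 and 66 reads in KO and 86, 86 and 64 reads in WT. RefSeq lists Tox2 starts 21.3, 22.2 and 22.3 kb upstream of the last one in GRCm38, and the builds were not converted.

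Near Tcf7 a peak of 254 reads lay 31.2 kb upstream (chr11:52127370-52128132), with 53, 41 and 43 reads in KO and 37, 43 and 37 in WT. Near Lef1 a peak of 205 reads lay 90.7 kb upstream (chr3:130722151-130722851), with 42, 24 and 38 reads in KO and 37, 38 and 26 in WT. Near Irf4 a peak of 177 reads lay 36.9 kb downstream of the start (chr13:30877711-30878364), with 35, 21 and 36 reads in KO and 28, 32 and 25 in WT. Near Maf a peak of 162 reads lay 36.0 kb upstream (chr8:118266626-118266980), with 30, 21 and 26 reads in KO and 24, 37 and 24 in WT. Which gene these peaks act on was not tested.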

How the results depend on the processing

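No called value changed direction under the alternatives run, but uncalled start-site values did: the Lef1 ratio of KO to WT was 1.05, and 0.936 with median-of-ratios scaling. The count of called members for Tfh4 against Tfh21 and for Tfh4 against Tfh214 was 1 for start-site sums and for peaks, and became 0 with DESeq2, edgeR, median-of-ratios scaling or no variance trend, and for peaks also with no minimum of reads. Leaving out 1 library gave 0 to 1 for start-site sums in both comparisons, 0 to 1 for peaks against Tfh214 and 0 to 3 for peaks against Tfh21, and 0 to 3 for KO against WT peaks (0 in the full fit). In that comparison it was 3 without KO Tfh214 or WT Tfh214 and 1 without KO Tfh4 or WT Tfh4, and in Tfh4 against Tfh21 it was 3 without KO Tfh214 or WT Tfh214. With median-of-ratios scaling and with the reads of the same table as total, start-site intervals away from 1 became 0 for KO over WT, KO Tfh21 over WT Tfh21, Tfh4 over Tfh21, KO Tfh4 over KO Tfh21 and WT Tfh4 over WT Tfh21, and with the first also for Tfh4 over Tfh214. For distal sums, under both scalings, they became 2 for KO over WT, 1 for KO Tfh4 over WT Tfh4, 4 for Tfh4 over Tfh214 (3 as reported), 3 for WT Tfh4 over WT Tfh21 (2 as reported) and 4 for KO Tfh4 over KO Tfh214 (2 without the scaling). In the same order, with median-of-ratios scaling, 406 and 346 of all 5184 genes lay above 1, and 398, 280 and 252 below 1. Without it these were 254, 242, 188, 152 and 148 genes. Of the 8 distal log2 differences of Tfh4 against Tfh21, 0 to 1 were above 0 over 16 alternatives, with 4 to 10 members tested. The cause of these changes was not tested. The fit for KO against WT has population as a term, so it already sets each KO library against the WT library of its population, over 3 pairs. Leaving out either library of a pair therefore gives the same difference, and the 2 are not separate checks. The same holds for either Tfh214 library in Tfh4 against Tfh21. No further paired analysis by replicate number was run, since the labels carry none. Depth limits single peaks, since 212 of 258 held fewer than 30 reads.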

Other observations

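Intergenic signal within 100 kb differed between the genes. All peaks with no symbol there summed to 1245 reads at Tcf7 (46 peaks), 1054 at Tox2 (30), 859 at Maf (30), 666 at Lef1 (29) and 633 at Irf4 (25), and to 250 to 361 at Bcl6, Batf, Ascl2, Tox and Pou2af1. At Tcf7, Tox2, Maf, Irf4 and Ascl2 they exceeded the 785, 884, 636, 441 and 117 reads of the peaks that carry the gene's symbol. At Bcl6 these intergenic peaks stood at 45.7, 36.3 and 36.3 CPM in the KO libraries (order Tfh21, Tfh214, Tfh4), against 44.5, 46.4 and 49.5 CPM in WT. At Irf4 they stood at 84.7, 81.4 and 102 CPM in KO and 75.7, 88.9 and 113 CPM in WT, with Tfh4 the highest in each genotype, while the distal peaks of the gene itself were lowest there. Windows can hold peaks of neighbouring genes, and no test was made.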
